A study of Mus musculus with 4 samples.

Results

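In 4 RNA-seq libraries of mouse T-helper 2 cells, 1123 autosomal genes had a replicate 4 level of at most 0.5 times their mean level in replicates 1 to 3. They were drawn from 2041 eligible genes, which are autosomal, have no exon base in common with any opposite-strand gene (called unpaired here) and reached a minimum of 10 counts in replicates 1, 2 and 3 alike. The gene tables held 50600 genes, of which 38380 were autosomal and unpaired. Levels are CPM, that is, counts per 1000000 counts of the library, taken without the ribosomal RNA gene CT010467.1. The ratio of a gene is its CPM in replicate 4 over its mean CPM in replicates 1 to 3. The members were chosen by this ratio, so every difference between replicate 4 and the other libraries is a description of the choice and carries no test.

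The cells were primary T-helper 2 cells of C57BL/6NJ mice, obtained by a differentiation protocol for CD4 T cells. All 4 libraries belong to 1 group, with no control and no other genotype or agent in the labels, which give the age as unknown and the sex as not collected. The file headers name a time point of 24 hours for all 4 libraries. The donor record is the same for every library, and nothing in the labels ties the replicates to separate mice, so the spread between them may be technical. The assay is labelled total RNA-seq, but the protocol document linked to it has poly(A) RNA in its name.

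The libraries held 1785767, 1825361, 1935713 and 1857055 counts in replicates 1 to 4 without CT010467.1. CT010467.1 itself had 18450, 21080, 776235 and 312900 counts, so replicates 3 and 4 stood apart from replicates 1 and 2 in this gene. Autosomal genes with exon overlap on the opposite strand that passed the same minimum took 88.8%, 88.2%, 87.8% and 91.5% of the remaining counts. Unpaired genes therefore rest on few counts, and 10 counts were 5.17 CPM in replicate 3, where the total was highest. A count is a fragment on the strand that the counting selected. Whether that is the transcribed strand of the named gene could not be settled from the tables, and it may be the opposite one. The counts are therefore not read as expression, and the functions given below are those of the annotated gene at each place. In bulk RNA, fewer cells of a kind and less RNA per cell cannot be told apart.

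A T-helper 2 cell is a CD4 T cell that makes interleukin-4 and related cytokines, and an activated T cell grows, makes ribosomes and divides. The lists described here are largely those of that general machinery. Ribosomal proteins join ribosomal RNA in the nucleolus, translation factors and chaperones carry proteins from synthesis to folding, and helicases and kinesins copy and part the chromosomes. Many mRNAs of the translation machinery begin with a run of pyrimidines, the 5′ terminal oligopyrimidine tract, through which mTOR signalling controls their translation.

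Promoter sequences from RefSeq (build GRCm38.p6) were found for 898 of the 1123 members, 620 of the 918 eligible genes above 0.5 and 19967 genes in all. Stretches from 40 bases before to 19 bases after the annotated start are shown for 4 ribosomal protein members, for Myh9, which is no ribosomal protein but has a like run, and for 4 members of other functions. They were picked with their runs in view, to show long and short runs of C or T around the start. Capitals mark the longest unbroken run of C or T on the gene's strand in the stretch, and sequences read 5′ to 3′ on that strand.
Rpl4, chr9:64173347-64173406, plus strand: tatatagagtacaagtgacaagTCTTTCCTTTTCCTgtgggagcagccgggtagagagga
Rpl7a, chr2:26910767-26910826, plus strand: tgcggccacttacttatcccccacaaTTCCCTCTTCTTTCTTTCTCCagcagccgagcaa
Rpl14, chr9:120571477-120571536, plus strand: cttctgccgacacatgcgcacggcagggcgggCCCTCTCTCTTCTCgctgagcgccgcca
Rps24, chr14:24490638-24490697, plus strand: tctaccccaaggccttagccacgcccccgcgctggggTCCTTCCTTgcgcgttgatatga
Myh9, chr15:77842156-77842215, minus strand: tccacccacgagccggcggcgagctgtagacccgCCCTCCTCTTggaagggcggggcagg
Ncl, chr1:86359436-86359495, minus strand: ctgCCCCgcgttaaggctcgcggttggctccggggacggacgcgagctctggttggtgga
Mki67, chr7:135716360-135716419, minus strand: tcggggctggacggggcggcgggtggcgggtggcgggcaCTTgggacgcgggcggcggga
Calr, chr8:84846912-84846971, minus strand: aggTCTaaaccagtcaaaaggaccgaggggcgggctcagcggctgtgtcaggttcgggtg
Top2a, chr11:99024170-99024229, minus strand: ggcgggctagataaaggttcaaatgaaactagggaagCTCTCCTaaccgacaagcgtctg

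The run is 14 bases in Rpl4, 21 in Rpl7a, 14 in Rpl14, 9 in Rps24 and 10 in Myh9, and 4, 3, 3 and 7 in Ncl, Mki67, Calr and Top2a. Other ribosomal protein members had short runs in the same stretch, such as 3 bases in Rpl23, 5 in Rpsa and in Rpl19, and 6 in Rps3, so its length did not set the groups apart. In the wider window of 50 bases to either side of the start, a run of at least 10 C or T bases in any order on the gene's strand was present in 25 of the 36 ribosomal protein members with a promoter entry (69.4%). Over all members the share was 21.9%, over eligible genes above 0.5 it was 14.2% and over all promoters 18.0%. The long run was thus common among the ribosomal protein members and not a feature of the members at large. The GC box (GGGCGG, either strand, anywhere in the 300 bases) was in 70.6% of member promoters, 66.3% of those of eligible genes above 0.5 and 43.7% of all promoters. The TATA box (TATAAA) was in 6.12%, 6.94% and 13.1%. For both motifs the eligible genes above 0.5 lay nearer to the members than all promoters did. The ETS core (CCGGAAG) was in 211 of 898 member promoters (23.5%), 124 of 620 of the eligible genes above 0.5 and 11.2% of all promoters. A match of letters is not a binding site.

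Summed over the 1123 members, replicates 1 to 4 had 46109, 56969, 55447 and 12941 counts. As a share of the library total this was 2.58%, 3.12%, 2.86% and 0.697%, with a mean of 2.86% ± 0.270 over replicates 1 to 3 (SD, n = 3) and a ratio of 0.244. The 918 eligible genes above 0.5 took 2.82%, 2.72%, 2.90% and 2.88%. The sets were split on the ratio of replicate 4, so their contrast in that library restates the split. The rule took 55.0% of the eligible genes. Among 3288 autosomal genes with exon overlap on the opposite strand, under the same minimum, 331 (10.1%) had a ratio of at most 0.5.

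The median ratio was 0.223 over the members (quartiles 0.131 and 0.332), 0.951 over the eligible genes above 0.5, 0.427 over all eligible genes and 0.987 over the genes with such overlap. In all 1123 members replicate 4 lay below the lowest of replicates 1 to 3. This was so in 72.0% of the eligible genes, the members included, and in 35.7% of the genes with such overlap. Most members are low in count. Of 647 eligible genes with 30 to below 60 counts summed over replicates 1 to 3, 380 were members (58.7%). At 1000 counts or more, 10 of 30 eligible genes were members (33.3%). The median ratio of the eligible genes was 0.368 in the first of these groups and 0.839 in the second. In replicate 4, 39 members had no count, which allows up to 3 counts or 1.62 CPM, 308 had 1 to 3 counts and 345 had at least 10. The exact 95% counting interval of the ratio lay wholly below 0.5 for 559 members and reached 0.5 for 564. Intervals and floors here cover counting error only. For 23 members the interval reached 1, so for these the depth cannot tell the replicates apart.

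**Figure D1:**
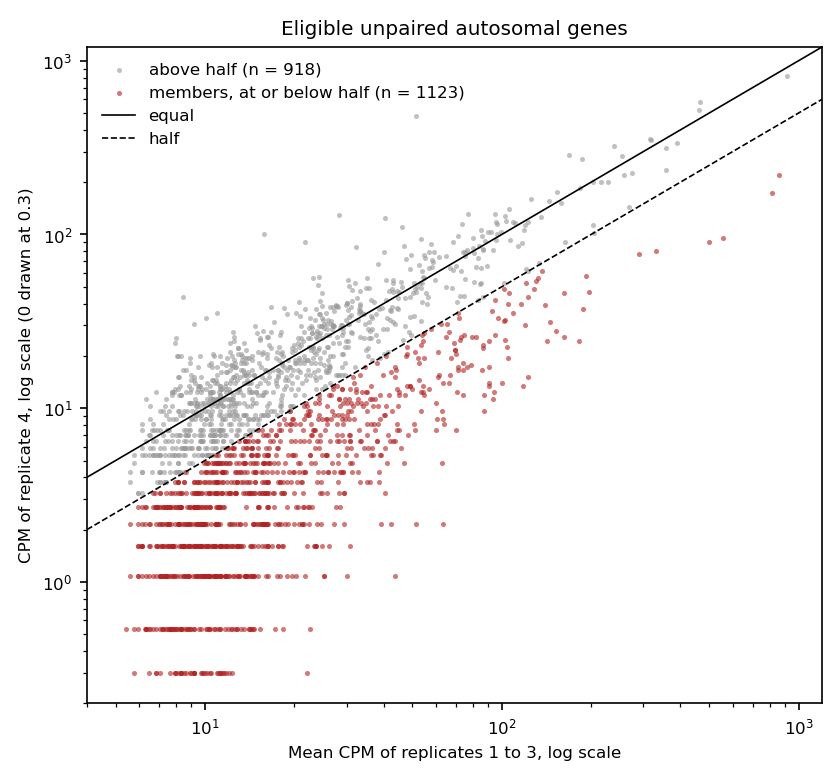
Each point is 1 of the 2041 eligible genes, with mean CPM of replicates 1 to 3 on the x axis and CPM of replicate 4 on the y axis, both log scales and genes with no count in replicate 4 drawn at the lower edge. Members lie at or below the dashed line of the ratio 0.5. Of 30 eligible genes with at least 1000 counts summed over replicates 1 to 3, 10 are members. These 10 lie well under the dashed line, away from the genes that follow the line of equality.

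By count in replicates 1 to 3, the members were led by genes of protein folding, of the nucleolus and of translation. Hsp90ab1, the constitutive cytosolic HSP90 chaperone (ENSMUSG00000023944.14, chr17:45567775-45573271), had 1350, 1641, 1803 and 410 counts in replicates 1 to 4. That is 756, 899 and 931 CPM in replicates 1 to 3 and 221 CPM in replicate 4, a ratio of 0.256 with a counting interval of 0.230 to 0.283. Ncl, which encodes nucleolin, a major nucleolar protein (ENSMUSG00000026234.12, chr1:86344719-86359400), had 1307, 1611, 1588 and 322 counts, a ratio of 0.214 (0.190 to 0.239). In both genes replicates 1 to 3 lay within a narrow band and replicate 4 far under it. Npm1, nucleophosmin of the nucleolus (ENSMUSG00000057113.13, chr11:33152287-33163206), had 877, 1125, 1096 and 178 counts. Eef1a1, the elongation factor that delivers aminoacyl-tRNA to the ribosome (ENSMUSG00000037742.14, chr9:78478449-78489151), had 827, 1014, 928 and 167. Their ratios were 0.172 and 0.180, lower than that of Hsp90ab1, and the counting intervals (0.147 to 0.200 and 0.153 to 0.211) did not reach its lower limit.

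Next in count came Rpl4, a protein of the large ribosomal subunit, with 538, 629, 668 and 150 counts. Anp32b, an acidic histone chaperone, had 474, 548, 586 and 144. Eef2, the translocase of elongation, had 295, 414, 388 and 87, and Eif3a, the largest subunit of the initiation factor eIF3, had 297, 342, 436 and 107. Their ratios lay between 0.237 and 0.299. Per exon length, which allows genes to be compared, Hsp90ab1 led with 287 CPM per kb as the mean of replicates 1 to 3. Npm1 followed with 209, Eef1a1 with 200.3, Rps24 with 193, Anp32b with 169 and Rpl4 with 165, while Ncl, long in exon sequence, had 79.7. The 20 members with most counts held 18.9% to 20.2% of the members' counts in each library, so the set is not carried by a few genes. Hsp90ab1, Npm1, Eef1a1, Actb and the ribosomal protein genes have many processed copies in the genome. The headers name no option to count fragments that align to several places, so such fragments may be missing from the counts of these genes.

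**Figure D2:**
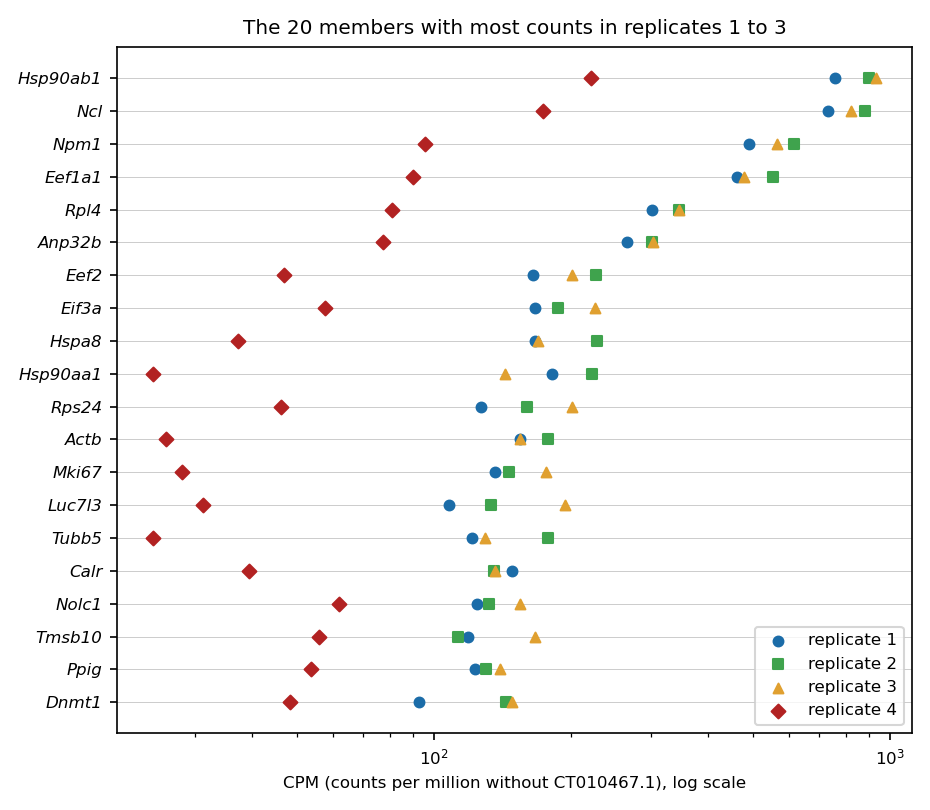
CPM in each of the 4 libraries for the 20 members with the highest summed count in replicates 1 to 3, on a log axis, with 1 marker per library. Replicate 4 (diamonds) lies left of the other libraries in each gene, from 221 CPM for Hsp90ab1 to 24.2 CPM for Hsp90aa1 and Tubb5.

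Chaperones were members in 16 of 17 eligible genes of the list, against 55.0% of all eligible genes. Their summed level was 1778, 2140, 1903 and 458 CPM in replicates 1 to 4. Hspa8, the constitutive HSP70, had 297, 416, 328 and 69 counts, and Hsp90aa1, the inducible HSP90, had 324, 406, 277 and 45. Calr, the calcium-binding chaperone of the endoplasmic reticulum, had 265, 247, 263 and 73. Hsp90aa1 was the lowest of these 3, with a ratio of 0.133, and Calr the highest at 0.281. Cct3, a subunit of the chaperonin that folds actin and tubulin, was lowest in the list with 74, 91, 69 and 4 counts. Hspa4, an HSP70 family member, was the 1 eligible gene above 0.5, at 0.511.

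All 23 eligible genes of the ribosomal protein list were members, with a median ratio of 0.247 and a range of 0.110 to 0.479. Their summed level was 1611, 1960, 1912 and 459.9 CPM, or 1828 ± 189.6 CPM in replicates 1 to 3 (SD, n = 3). Rps24, of the small subunit, had 226, 292, 388 and 86 counts, and Rplp0, of the ribosomal stalk, had 167, 219, 194 and 42. Rpsa, the laminin receptor homologue of the small subunit, had 129, 169, 188 and 18, a ratio of 0.111, and Rpl7a, of the large subunit, had 159, 180, 187 and 78, a ratio of 0.443. These 2 genes were picked for their distance within the list's range. Over every gene named Rpl or Rps, a grouping made after the values were seen, 50 of 54 eligible genes were members, and Rpl27a, Rpl29, Rpl34 and Rpl36 were not. Of the mitochondrial ribosomal protein genes (Mrpl and Mrps) 4 of 11 were members, with a median ratio of 0.548.

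Translation factors were members in 18 of 21 eligible genes (median ratio 0.242). Pabpc1, the cytoplasmic poly(A)-binding protein, had 192, 247, 243 and 28 counts, and Eif4g2, an initiation factor scaffold, had 145, 215, 198 and 26. Eif3b, another subunit of eIF3, had 74, 89, 76 and 101 counts and lay above 0.5 with a ratio of 1.26, while Eif3a had a ratio of 0.299. Subunits of 1 complex thus lay on both sides of the threshold. Aminoacyl-tRNA synthetases, which charge tRNAs, were members in 10 of 12 and had the lowest median ratio of all lists, 0.151. Eprs, the glutamyl-prolyl enzyme, had 58, 92, 65 and 16 counts, Nars, the asparaginyl enzyme, had 38, 50, 52 and 2, and Iars, the isoleucyl enzyme, had 31, 60, 40 and 3. The 2 synthetases above 0.5 were the glutaminyl enzyme Qars (153, 169, 151 and 119) and the valyl enzyme Vars (100, 91, 137 and 129), which also had the most counts of the list.

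Ribosome biogenesis genes were members in 12 of 15. Nolc1, a nucleolar phosphoprotein, had 222, 241, 299 and 115 counts, a ratio of 0.452, and its counting interval (0.367 to 0.549) reached the threshold. Tcof1, the treacle protein of ribosomal RNA synthesis, had 99, 123, 150 and 29, and Nop58, a core protein of box C/D snoRNPs, had 90, 131, 132 and 16. Ubtf, a factor of RNA polymerase I, was above 0.5 with 75, 104, 100 and 86 counts. Splicing and RNA-binding genes were members in 28 of 32 (median 0.260). Luc7l3, a splicing factor, had 193, 244, 376 and 58 counts, Ddx21, a nucleolar RNA helicase, had 209, 215, 259 and 81, and Srsf11, an SR family protein, had 185, 202, 195 and 74. Hnrnpa1, an abundant hnRNP, was far lower with 92, 134, 123 and 9, and Snrnp70, of the U1 snRNP, was above 0.5 with 265, 279, 337 and 283.

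DNA replication and repair genes were members in 15 of 17 (median 0.215). Top2a, the topoisomerase of dividing cells, had 142, 208, 168 and 21 counts, Top1 had 140, 151, 150 and 48, and Pcna, the sliding clamp, had 120, 139, 100 and 48. Of the MCM helicase, Mcm3 had 84, 100, 96 and 15 counts and Mcm6 had 64, 101, 62 and 9. In each of these genes replicate 4 lay clear of the other 3 libraries. Mitosis genes were members in 15 of 16 (median 0.196). Mki67, the proliferation antigen Ki-67, had 243, 267, 341 and 52, Smc4 of condensin had 176, 209, 183 and 60, and its partner Smc2 had 54, 75, 82 and 12. Incenp, of the chromosomal passenger complex, was the exception with 142, 125, 196 and 136 counts. All 6 eligible kinesins (Kif genes, grouped after the values were seen) were members.

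Chromatin regulators were members in 17 of 23 (median 0.336). Dnmt1, the maintenance DNA methyltransferase, had 166, 263, 287 and 90 counts, and Chd4, the NuRD remodeller, had 133, 146, 130 and 31. Dnmt1 had a ratio of 0.377 and Chd4 of 0.226. Arid1a, a BAF subunit, was above 0.5 with 36, 66, 61 and 54 counts.

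Actin and cytoskeleton genes were members in 20 of 21 (median 0.192). Actb, cytoplasmic beta-actin, had 276, 324, 299 and 48 counts, Tubb5, a beta-tubulin, had 216, 324, 250 and 45, and Myh9, the heavy chain of non-muscle myosin IIA, had 153, 207, 247 and 66. Actb and Tubb5 had like ratios, 0.159 and 0.170, and Myh9 was at 0.326. Tmsb10, thymosin beta-10, which binds actin monomers, had 212, 206, 322 and 104 counts, a ratio of 0.422. Nuclear transport genes were members in 17 of 21 (median 0.160). Ipo5, an importin that carries ribosomal proteins, had 63, 106, 74 and 2 counts, Xpo1, the exporter of proteins with a leucine-rich signal, had 56, 67, 47 and 3, and Ran, the GTPase of both directions, had 66, 78, 60 and 10. Replicate 4 was almost empty for both carriers and held 10 counts of Ran.

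Glycolysis genes were members in 6 of 7. Ldha, lactate dehydrogenase A, had 153, 206, 161 and 23 counts, Pkm, pyruvate kinase, had 154, 191, 157 and 32, and Eno1, enolase, had 45, 72, 46 and 6. The lactate exporter Slc16a3 was above 0.5, with 63, 53, 78 and 91 counts and a ratio of 1.41. The other lactate transporter of the list, Slc16a1, was a member with 29, 49, 44 and 20 counts, so the transporters differed and the eligible enzymes were all members.

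Mitochondrial genes of the nucleus were members in 13 of 15, led by the ATP synthase subunits Atp5b (107, 162, 124 and 23) and Atp5a1 (89, 116, 92 and 18). Slc25a3, the mitochondrial phosphate carrier, had 38, 36, 35 and 2. Lipid synthesis genes were members in 5 of 7. Acly, ATP citrate lyase, had 29, 51, 41 and 2 counts, Fasn, fatty acid synthase, had 42, 26, 37 and 5, and Scd2, a stearoyl-CoA desaturase, had 20, 43, 35 and 4. In all 3 replicate 4 held 5 counts or fewer. Sqle and Mvd, of sterol synthesis, were above 0.5, at 0.618 and 1.49.

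Ubiquitin and proteasome genes were members in 13 of 16, with Psmd2, of the regulatory particle, near the threshold (84, 103, 112 and 49 counts, ratio 0.491), Uba2, of the SUMO-activating enzyme, at 39, 57, 55 and 4, and the deubiquitinase Usp7 at 46, 60, 41 and 16. Uba2 was nearly absent from replicate 4, while Psmd2 had its counting interval (0.354 to 0.664) on both sides of 0.5. Membrane traffic genes were members in 5 of 6, led by Rab8b (53, 68, 50 and 12) and the clathrin heavy chain Cltc (32, 37, 32 and 3). The kinase list was at 8 of 11, with Csnk1a1, a casein kinase, at 39, 63, 54 and 10, Wnk1 at 41, 45, 39 and 18 and Csk, the kinase that restrains Src family kinases, at 30, 53, 37 and 4.

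Genes that define the T cell were on the whole low in count. T cell receptor and costimulation genes were members in 14 of 18, with a median ratio of 0.283 and a summed level of 255, 354, 288 and 49.5 CPM. Ptprc, the CD45 phosphatase (ENSMUSG00000026395.16, chr1:138062861-138175708), had 175, 273, 208 and 25 counts, a ratio of 0.114 (0.0731 to 0.170). Cd4, the coreceptor, had 56, 67, 71 and 20, and Lck, the kinase bound to it, had 33, 43, 33 and 10. Trac, the constant region of the T cell receptor alpha chain, had 19, 30, 27 and 2, and Cd28, the costimulatory receptor, had 19, 45, 32 and 1. Replicate 4 lay below the other libraries in all 5, by more in Trac and Cd28 than in Cd4, on counts that are small. Prkcq, Cd6, Cd5 and Zap70 of this list were above 0.5, with ratios of 0.740, 0.913, 0.514 and 0.647.

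Of the Th2 program, 5 genes were eligible and 4 were members. Irf4, a transcription factor of helper differentiation (ENSMUSG00000021356.9, chr13:30749226-30766927), had 115, 143, 114 and 36 counts, a ratio of 0.288 (0.199 to 0.408). Ccr4, a chemokine receptor of Th2 cells, had 32, 62, 38 and 7, Rad50, the repair gene of the Th2 cytokine locus, had 54, 23, 35 and 5, and the AP-1 family factor Batf had 16, 11, 13 and 5. Il4 was the 1 eligible gene of the list above 0.5, with 24, 21, 25 and 26 counts and a ratio of 1.11. Il4 was thus near level across the 4 libraries, on small counts. The other 4 eligible genes were low in replicate 4 by the choice of members, so the contrast with Il4 carries no test. Another 9 genes of this list have exon overlap on the opposite strand and 7 were under the minimum.

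T cell transcription factors were members in 9 of 12, with Tcf7 (57, 60, 79 and 23 counts), Nfkb1 (48, 72, 59 and 10) and Ikzf1 (33, 41, 54 and 13) leading by count. Ets1, Ikzf3 and Nfatc1 were above 0.5, at 0.739, 0.840 and 0.709. Cytokine receptor and JAK-STAT genes were members in 4 of 7, close to the 55.0% of all eligible genes. Il2ra, the alpha chain of the interleukin-2 receptor, had 61, 110, 76 and 19 counts, Jak2 had 32, 49, 37 and 4 and Tnfrsf4, the OX40 receptor, had 22, 22, 17 and 1. Il2rb, the beta chain of the same receptor, had 27, 23, 22 and 20 and was not a member. The alpha and beta chains of the interleukin-2 receptor therefore lay on different sides of the threshold.

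Amino acid transport and metabolism and the surface and adhesion list were just below the share of all eligible genes. In the first, 8 of 15 were members, led by Odc1 (43, 59, 45 and 22), Cad (49, 46, 39 and 11) and Mthfd1l (35, 40, 35 and 16), which are enzymes of polyamine, pyrimidine and folate metabolism. The transporters Slc38a1 (93, 113, 126 and 102 counts) and Slc3a2 (100, 86, 111 and 91) were level across the libraries, and Slc7a5, the partner of Slc3a2 in the leucine transporter, had 23, 28, 31 and 55. Of all 24 eligible genes named Slc, 6 were members, with a median ratio of 0.854 (a grouping made after the values were seen). In the surface list 7 of 14 were members. Tfrc, the transferrin receptor, had 81, 119, 85 and 4 counts, a ratio of 0.0418 (0.0113 to 0.109), H2-D1, a class I heavy chain, had 50, 61, 56 and 20, and Spn, CD43, had 37, 57, 65 and 19. The integrins Itgb1 (77, 95, 133 and 142) and Itgae (60, 42, 54 and 71) were highest in replicate 4. Of 2 eligible long noncoding RNAs, Gas5, a host of snoRNAs, was a member with 37, 50, 31 and 8 counts and Mirt1 was not. No gene of the interferon list was eligible.

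**Figure D3:**
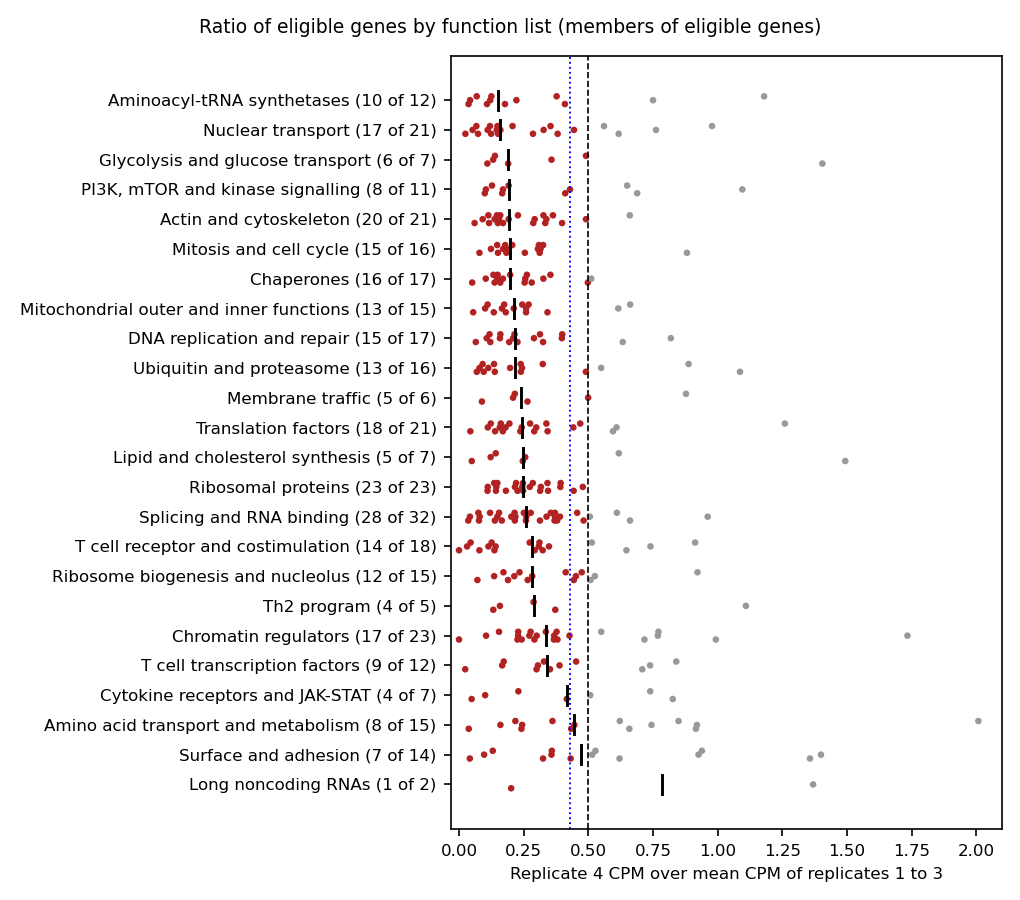
Each point is the ratio of 1 eligible gene, by function list, with members in red, genes above 0.5 in grey, the list median as a black bar, the threshold dashed and the median of all eligible genes (0.427) dotted. Aminoacyl-tRNA synthetases and nuclear transport have the lowest medians (0.151 and 0.160), and the amino acid, surface and long noncoding RNA lists have medians right of the dotted line.

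The function lists held 288 of the 1123 members (25.6%) and 48.8% of the members' counts in replicates 1 to 3, so most members by number belong to none of them. By gene type in GENCODE M21, 1115 members were protein coding (99.3%), against 83.4% of the eligible genes above 0.5. None of 39 genes typed as antisense and 3 of 27 lincRNAs were members. Of the eligible genes with a Gm number 3 of 119 were members and of those with a Rik name 0 of 36, with median ratios of 1.05 and 1.12.

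The members with at least 100 counts in replicates 1 to 3 and the lowest ratios were Rif1, Myc, Ipo5, Ckap5 and Ddx1. Rif1, which controls replication timing, had 37, 43, 42 and 0 counts. Myc, the growth-promoting transcription factor, had 42, 42, 41 and 1, a ratio of 0.0239 (0.000600 to 0.136), and Ckap5, a microtubule polymerase, had 33, 24, 45 and 1. In Rif1 and Myc replicates 1 to 3 agreed closely and replicate 4 was at or near the limit of detection. At the threshold the last members were Lrrfip1, Pnisr and Ap3b1 (ratios 0.4998, 0.4996 and 0.4994). The first genes outside it were Smarce1, Tpp2 and Ptma (0.5002, 0.5006 and 0.5009). Ptma, prothymosin alpha, had 316, 309, 516 and 190 counts, and none of these 6 can be placed on either side at this depth. The eligible genes above 0.5 with most counts were ENSMUSG00000099597.1, Espn, Gpld1, Gmpr2 and Prpf38b, with ratios of 0.898, 1.24, 1.13, 0.869 and 0.655.

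Replicates 1 to 3 were compared without replicate 4 to ask whether the members also varied there. The quasi-likelihood dispersion of edgeR was set against its trend for 5463 genes that reached 10 counts in all 3 libraries. At an adjusted p under 0.05, 22 genes were called (0.403%), among them 1 of the 1123 members and 1 of the 918 eligible genes above 0.5. At an unadjusted p under 0.05, 5.24% of all genes, 61 members (5.43%) and 42 of the others (4.58%) were called, so the members' share was near the background. The member called was Ddx1, a DEAD-box RNA helicase (ENSMUSG00000037149.9, chr12, 26 exon blocks), with 27, 169, 160 and 4 counts (edgeR adjusted p = 1.33624e-11). Replicate 1 was at 15.1 CPM in this gene, replicates 2 and 3 at 92.6 and 82.7 CPM, and replicate 4 at 2.15 CPM, so Ddx1 alone among the members differed between replicates 1 to 3 by this test. Ddx1 was also called without replicate 3, and no member was called without replicate 1 or without replicate 2.

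The members did not stand at the same height in replicates 1 to 3. Against the mean of the other 2 libraries, the median ratio over the members was 0.876 in replicate 1, 1.14 in replicate 2 and 0.954 in replicate 3. Over the eligible genes above 0.5 these were 1.01, 0.963 and 1.00. Of the 1123 members, 543 had their lowest level of replicates 1 to 3 in replicate 1 and 589 their highest in replicate 2. The order of the libraries over the members was therefore replicate 2, replicate 3, replicate 1 and, by the choice of genes, replicate 4. Spearman's rho of CPM across the 1123 members was 0.823 to 0.850 between replicates 1 to 3 and 0.684 to 0.731 between replicate 4 and each of them. Across the 918 other genes it was 0.859 to 0.882 and 0.826 to 0.842. Genes are not independent replicates, low counts weaken these values, and the members are lowest in count in replicate 4.

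**Figure D4:**
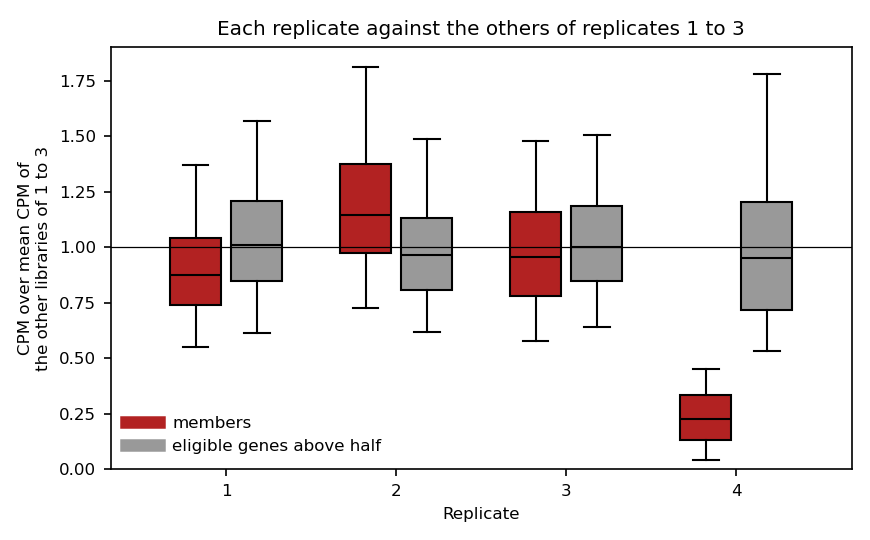
CPM of each replicate over the mean CPM of the other libraries among replicates 1 to 3, for members (red) and eligible genes above 0.5 (grey). Boxes are quartiles, whiskers the 5th and 95th percentiles. The members' medians are 0.876, 1.14 and 0.954 in replicates 1 to 3, and 0.223 in replicate 4, which chose them.

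Members differed in gene structure from the eligible genes above 0.5, a property the rule did not use. The median number of merged exon blocks was 13 against 8, the median exon length 4677 against 3726 bases and the median gene span 26610 against 15866 bases. The median GC content of each gene's longest transcript in GENCODE M21 was 47.7% against 50.7%. Of 101 eligible genes with a single exon block 6 were members (5.94%), of 178 with 2 or 3 blocks 32.6%, and of 661 with 16 or more blocks 66.4%. The share of members was higher at each step of exon number. The sets also differed in gene type, with 99.3% of members and 83.4% of the others protein coding. Exon number was not compared within protein-coding genes.

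Members also lay farther from genes of the opposite strand, although by the rule neither set overlaps one in its exons. Distance was taken from the 3′ end to the nearest gene on the other strand lying wholly beyond it, passing over genes that overlap the body. Its median was 17505 bases for members and 7754 for the eligible genes above 0.5. Of 286 eligible genes with that distance at most 1000 bases 40.6% were members, and of 283 with more than 100000 bases 63.6%. The body of the gene, introns included, lay over a gene on the other strand in 15.4% of members and 29.7% of the others. In the later annotation GENCODE M21, 2.58% and 6.64% had exon overlap on the opposite strand after all. At the 5′ end the sets were alike, with 19.5% of each within 1000 bases by the same measure. These properties are linked to one another, and their part in the ratio was not tested. By chromosome the share of members ran from 40.4% on chromosome 8 to 66.0% on chromosome 15.

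**Figure D5:**
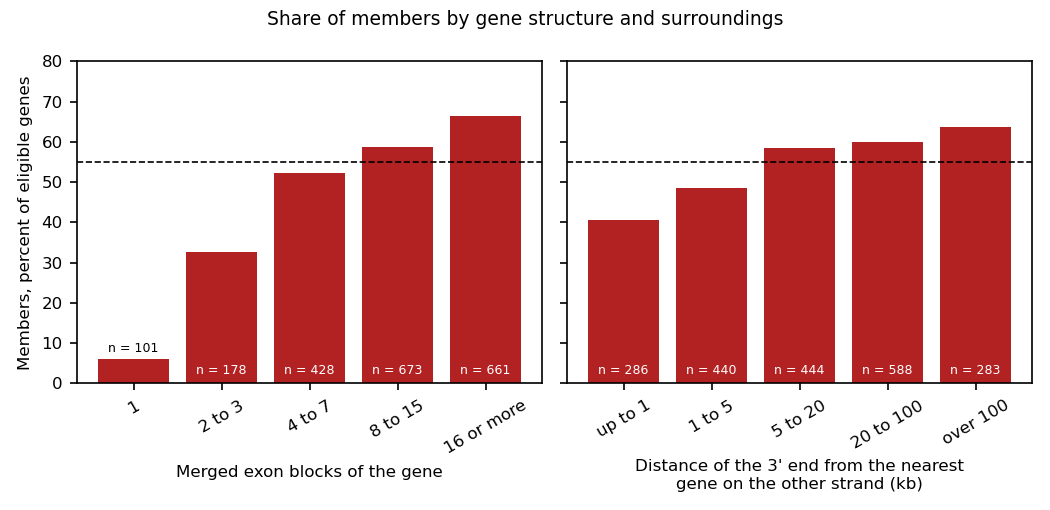
Members as a percent of eligible genes by number of merged exon blocks (left) and by distance from the 3′ end (right). That distance is to the nearest gene on the other strand lying wholly beyond the 3′ end. The number of eligible genes is in each bar and the share over all eligible genes is dashed. The share goes from 5.94% to 66.4% with exon blocks and from 40.6% to 63.6% with distance.

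Markers of 9 other cell types were looked for beside the members. Of 56 such markers 49 were unpaired, 35 of these had no count in any library and none had 10 counts in each of replicates 1 to 3, so none was eligible. The 49 markers summed to 39.8 to 40.3 CPM in replicates 1 to 3 and to 34.5 CPM in replicate 4, and Pecam1 was highest with 23, 9, 14 and 19 counts. Markers with exon overlap on the opposite strand are not in these sums. The whole macrophage and monocyte list had 1040, 1001, 1014 and 1001 counts, of which its unpaired markers held 14, 8, 8 and 18. Of the T cell markers 7 were eligible and 6 were members. The 9 unpaired T cell markers summed to 123, 167, 116 and 36.1 CPM. Unpaired markers are thus low even for T cells, and few counts of a marker cannot show that its cell type was absent. CT010467.1, with the counts given above, was highest in replicates 3 and 4. Its part in the members' ratio was not tested.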

How the data were processed

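Per the file headers, the authors counted paired fragments per gene with featureCounts 1.4.6-p4 over exons of GENCODE M13, with both ends aligned and strand setting 1, from alignments whose tool version is not given in the sources used here. The deposited values are raw counts, on mm10 per the labels. Shared exon bases, exon blocks and distances were computed from the coordinates in the tables, and ratios from CPM as defined above. Counting intervals are exact conditional binomial.

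The spread between replicates 1 to 3 was tested with edgeR 4.0.16 (TMM, intercept-only quasi-likelihood fit, upper-tail F test of each dispersion against the trend, Benjamini-Hochberg adjustment over all genes tested, threshold 0.05). The trend and prior were made robust to outlying genes because the default failed when the script was tested on simulated data, a change made after the real calls of the default had been seen. DESeq2 1.42.0 and R 4.3.3 gave alternatives.

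Genes named are the 20 members with most counts, up to 3 per function list, those nearest the threshold, the lowest ratios, members called in the spread test and the highest genes above 0.5. Other named genes, the groupings by gene symbol and the search for C or T runs were chosen with the values in view. Some named genes are not reported here. The members and lists were chosen with earlier results of these data known. Promoters are the RefSeq entries nearest to each gene's start.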

Additional observations from a re-analysis of the deposited data

Results flagged for a closer look

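In 9 of 88 named genes, replicate 4 lay so far under the other 3 libraries that its gap to the nearest of them, over the whole range of CPM, passed Dixon's 95% critical value. Chance flags about 1 in 20 groups of 4 libraries, but the members were chosen for a low replicate 4, so their flags restate that choice. Replicate 4 had 25.8 CPM of Top1, 0.538 CPM of Myc, 39.3 CPM of Calr, 0 CPM of Rif1 and 39.8 CPM of Srsf11. It also had 25.8 CPM of Actb, 1.08 CPM of Slc25a3, 77.5 CPM of Anp32b and 80.8 CPM of Rpl4. In these genes replicates 1 to 3 lay close together. The other 71 named members and 8 genes above the threshold were not flagged in any library.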

How the results depend on the processing

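The number of members was 977 with a ratio of at most 0.4 and 1236 with at most 0.6. It was 555 of 1073 eligible genes with at least 20 counts and 3651 of 6334 with at least 1, where the number of eligible genes changes by construction. With TMM, DESeq2 size factors or CT010467.1 in the total it was 1056, 997 and 1154, and 950 without genes lying over a gene of the opposite strand. Leaving out replicate 1, 2 or 3 gave 1182 to 1382 members of 2182 to 2366 eligible genes (54.2% to 58.4%). The minimum count was then not asked of the replicate left out, so the number of eligible genes again changes by construction. The median ratio of all eligible genes was 0.427, 0.52 with DESeq2 size factors (the cause was not tested), and 0.384 to 0.452 with a replicate left out. With DESeq2 size factors 69 of the 80 members of the naming rule stayed at or below 0.5. None of these 80 reached 1 under any scaling or replicate left out. They were chosen at or below 0.5, so this follows largely from the choice and is no independent support. Members named beyond these 80 were not rerun. In the spread test, 22 genes and 1 member were called. With all 4 replicates edgeR called 0 genes and 0 members, with 270 of 4370 genes (6.18%) and 104 of 345 members (30.1%) at an unadjusted p under 0.05. That fit includes the library that chose the members. DESeq2 marked 24 genes, among them 2 members, Ddx1 and Luc7l3. Without the robust estimate, added after seeing the data, the counts were 16 and 1. Leaving out a replicate gave 3 to 14 genes and 0 to 1 members, the 1 being Ddx1 without replicate 3. Depth limits single members: for 564 of 1123 the counting interval reached 0.5.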
